A study of Mus musculus with 9 samples.

Results

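The aminoacyl-tRNA synthetases are the enzymes that join each amino acid to its transfer RNA. They were taken by gene symbol: 20 genes for the cytosolic enzymes and 16 for the mitochondrial ones. These 36 genes were found among 24420 counted gene symbols, and all 36 passed the filter on low counts that left 12501 genes for testing. RNA was measured by sequencing in 9 libraries of pancreatic islets from female mice, 5 labelled WT and 4 labelled KO. The KO libraries came from Rip-cre; Ogt f/f mice, in which Cre recombinase driven by the rat insulin promoter removes floxed Ogt in beta cells. The product of Ogt is the enzyme that adds the single sugar O-GlcNAc to serines and threonines of nuclear and cytosolic proteins. The WT libraries carried no Cre transgene, and 2 of them were Ogt f/+ and 3 were Ogt f/f. No library with the transgene and unfloxed Ogt was analysed here, so the transgene and the loss of Ogt cannot be told apart. The labels give no age for the mice. Nothing in the labels says that the libraries of a group came from separate animals, so p-values measure only the spread between these libraries.

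Each synthetase recognises its own amino acid and the matching transfer RNAs, and the charged transfer RNA carries that amino acid to the ribosome. Cytosolic and mitochondrial protein synthesis mostly use enzymes from separate nuclear genes, and Kars and Gars are exceptions that serve both compartments. In animal cells several cytosolic synthetases sit in a multisynthetase complex held together by scaffold proteins. Many cytosolic synthetase genes are described as targets of ATF4, the transcription factor of the integrated stress response. Beta cells make large amounts of proinsulin and depend on that response when protein folding is strained.

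The libraries came from sequencing runs numbered 1 (3 WT and 2 KO) and 3 (2 WT and 2 KO). Totals were 3796043 to 4462754 counts per library in run 1 and 5150443 to 6073537 in run 3. Levels are given as CPM, the share of a library's counts on a common scale, corrected by TMM factors, always with the libraries of run 1 before those of run 3. Ogt lay at 54.1 to 83.0 CPM in WT and 23.7 to 39.3 CPM in KO, and its log2 change was −1.30 ± 0.14 (SE). Every KO library lay below every WT library for Ogt, and the cells behind the remaining signal were not determined. Islet cells other than beta cells keep the gene under this promoter. Beta cell markers such as the insulins were abundant in every library, at a summed 42346 to 109370 CPM over 8 genes. Since the samples are whole islets, fewer cells of a type and less RNA per cell cannot be told apart.

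Most cytosolic enzymes fell in KO islets, and 1 mitochondrial enzyme rose. The difference between the classes was not itself tested. Of the 20 cytosolic genes, 12 fell, none rose and 8 were not called, by edgeR's quasi-likelihood test with run as a term and Benjamini-Hochberg adjusted p under 0.05 over all 12501 genes. For comparison, 8.96% of all genes tested were called lower and 18.5% were called in either direction. The median log2 fold change over the cytosolic genes was −0.37, against 0.02 over all genes tested. Every KO library lay below every WT library of its own run in 12 of the 20, a pattern that 11% of all genes tested showed. Of the 16 mitochondrial genes, 1 rose, none fell and 15 were not called, and their median log2 fold change was 0.05. Across all genes tested, 9.56% were called higher, so the 6.25% of mitochondrial genes called higher is no more than that share. No mitochondrial gene was called lower by DESeq2 or limma-voom either. In edgeR 2 of the 16 had an unadjusted p under 0.05, Aars2 in the higher direction and Lars2 in the lower. The standard errors differed between the classes, from 0.075 to 0.147 for cytosolic genes and from 0.121 to 0.373 for mitochondrial ones, so a mitochondrial change of cytosolic size was harder to detect.

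**Figure D1:**
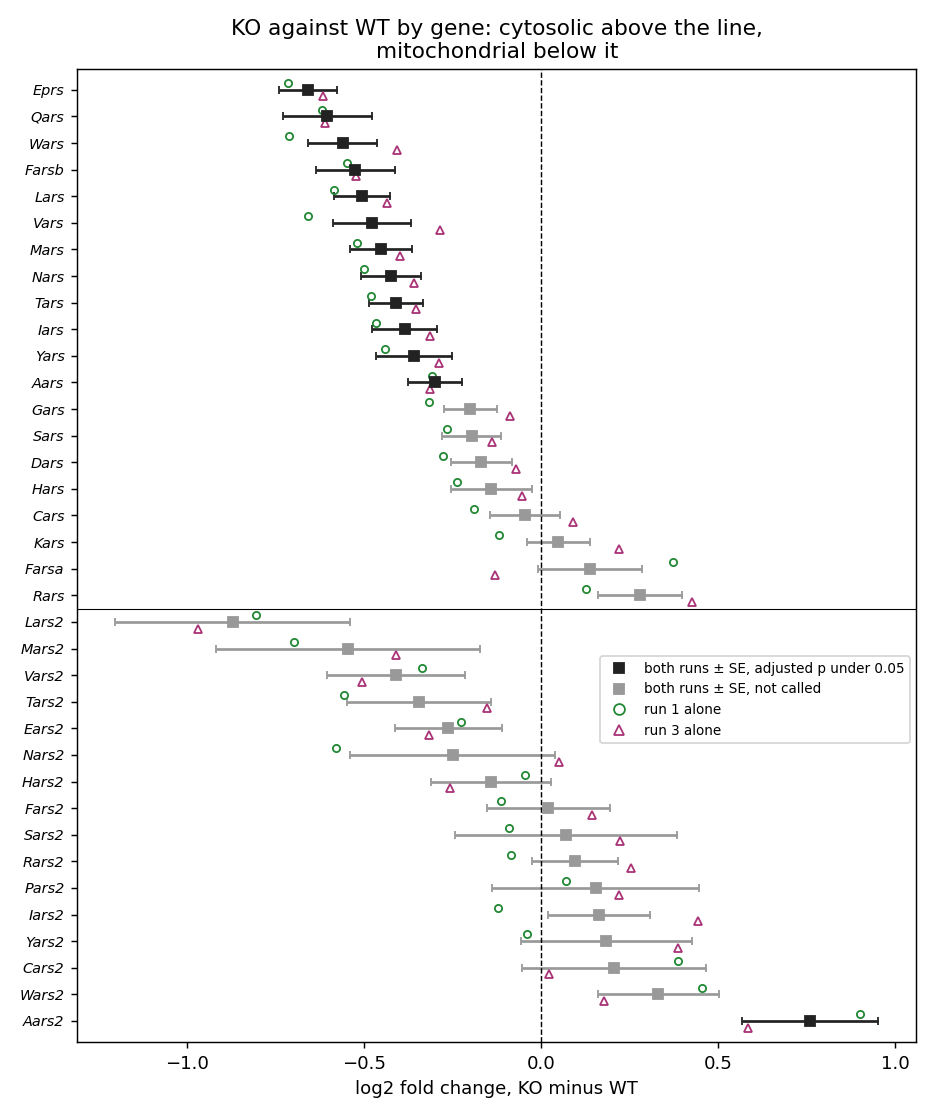
Log2 fold change (KO minus WT) of each synthetase, with squares for both runs together ± SE and open symbols for each run alone. The cytosolic calls lie between −0.66 for Eprs and −0.30 for Aars, and Aars2 at 0.76 is the called mitochondrial gene.

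The multisynthetase complex holds 8 of the cytosolic enzymes, and 5 of them fell (Eprs, Qars, Lars, Mars and Iars). Eprs charges glutamate and proline from a single fused protein and lies at chr1:185363044-185428360 (GRCm38, plus strand). Its level was 1296, 1341 and 1231 CPM in WT and 771 and 816 CPM in KO of run 1. In run 3 it was 828 and 783 CPM in WT and 467 and 589 CPM in KO. WT and KO did not overlap within either run, and the fitted change was −0.66 ± 0.08 (SE, log2; adjusted p = 8.5e-05), or 36.6% lower. Qars, the glutaminyl enzyme at chr9:108507706-108515941, read 71.3, 79.0 and 52.0 CPM in WT against 48.1 and 40.4 CPM in KO of run 1. It read 43.1 and 52.0 CPM in WT against 29.7 and 32.7 CPM in KO of run 3. The groups were separate within each run, with a narrow gap between WT replicate 3 and KO replicate 1, and the change was −0.60 ± 0.13 (SE, log2; adjusted p = 0.0035).

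Lars, the leucyl enzyme, is also known as a leucine sensor upstream of mTORC1. Its level was 191, 199 and 173 CPM in WT and 118 and 135 CPM in KO of run 1, then 128 and 128 CPM in WT and 96.5 and 93.6 CPM in KO of run 3. The KO libraries were the lower ones in both runs, by −0.50 ± 0.08 (SE, log2; adjusted p = 4.6e-04). Mars, the methionyl enzyme that also charges the initiator transfer RNA, lies at chr10:127296221-127311786. It read 131, 148 and 117 CPM in WT and 93.5 and 92.7 CPM in KO of run 1, then 82.7 and 97.1 CPM in WT and 68.8 and 68.1 CPM in KO of run 3. Its change was −0.45 ± 0.09 (SE, log2; adjusted p = 0.0024), with no overlap within a run. Mars shares 68 exon bases on the opposite strand with Ddit3, itself lower by −1.49 (log2), and the sources used here do not say whether counting kept the strands apart. Iars, the isoleucyl enzyme at chr13:49682100-49734267, read 210, 236 and 176 CPM in WT against 155 and 148 CPM in KO of run 1. It read 132 and 129 CPM in WT against 97.9 and 113 CPM in KO of run 3. Iars was separate within each run (−0.39 ± 0.09, SE, log2; adjusted p = 0.0084), and its call was lost when the mean level of acinar markers was added to the model.

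The remaining 3 complex enzymes were not called. Kars, the lysyl enzyme, read 129, 131 and 114 CPM in WT against 117 and 114 CPM in KO of run 1. In run 3 the order turned, with 73.9 and 83.5 CPM in WT and 91.7 and 92.3 CPM in KO. Its log2 fold change was 0.05 ± 0.09 (SE; adjusted p = 0.75), and WT and KO overlapped in run 1. Dars, the aspartyl enzyme, ranged from 70.6 to 102 CPM in WT and from 70.9 to 86.9 CPM in KO (−0.17, log2; adjusted p = 0.19), with KO below WT in run 1 and overlap in run 3. Rars, the arginyl enzyme, had the highest value of the cytosolic class at 0.28 ± 0.12 (SE, log2; adjusted p = 0.12). It read 101.1, 75.8 and 66.9 CPM in WT and 100 and 79.6 CPM in KO of run 1, which overlapped, and 65.5 and 58.6 CPM in WT below 82.1 and 85.8 CPM in KO of run 3. Rars was called higher in run 3 alone, with the Ogt f/f controls alone, and without WT replicate 1 or KO replicate 2. Over the 8 complex enzymes the median log2 fold change was −0.42, and over the 12 outside the complex it was −0.33. The difference between these subgroups was not tested.

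Outside the complex, 7 of the 12 enzymes fell (Wars, Farsb, Vars, Nars, Tars, Yars and Aars). Wars, the tryptophanyl enzyme at chr12:108860030-108894174, read 127, 124 and 118 CPM in WT and 83.9 and 67.7 CPM in KO of run 1. It read 71.4 and 75.2 CPM in WT and 50.8 and 60.0 CPM in KO of run 3. The groups did not overlap within either run, and the change was −0.56 ± 0.10 (SE, log2; adjusted p = 9.7e-04). Farsb encodes the beta chain of the phenylalanyl enzyme, which works only together with the alpha chain from Farsa. Farsb read 55.0, 67.0 and 48.0 CPM in WT against 41.1 and 37.0 CPM in KO of run 1, and 42.6 and 39.5 CPM in WT against 28.7 and 28.8 CPM in KO of run 3. It was lower in every KO library than in the WT libraries of its run, by −0.52 ± 0.11 (SE, log2; adjusted p = 0.0040). Farsa, by contrast, ranged from 17.1 to 20.9 CPM in WT and from 16.4 to 24.2 CPM in KO and was not called (0.14 ± 0.15, SE, log2; adjusted p = 0.55). The ratio of the chains was not tested. Vars, the valyl enzyme at chr17:35000987-35016322, read 106, 113 and 83.3 CPM in WT against 61.5 and 67.2 CPM in KO of run 1, and 50.7 and 51.2 CPM in WT against 42.9 and 41.2 CPM in KO of run 3. Its change was −0.48 ± 0.11 (SE, log2; adjusted p = 0.0068), with no overlap within a run, and it was −0.66 in run 1 and −0.29 in run 3. The Vars call was lost in run 3 alone and on FPKM values with no filter.

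Nars, the asparaginyl enzyme, was the single cytosolic gene in which every KO library of both runs lay below every WT library. It read 255, 255 and 202 CPM in WT and 172 and 167 CPM in KO of run 1, then 178 and 176 CPM in WT and 133 and 145 CPM in KO of run 3. The change was −0.42 ± 0.09 (SE, log2; adjusted p = 0.0028). Across all 12501 genes tested, every KO library lay below every WT library in 641, so the pattern is not particular to Nars. Tars, the threonyl enzyme at chr15:11382301-11399665 (minus strand), read 172, 160 and 167 CPM in WT and 124 and 117 CPM in KO of run 1. It read 134 and 119 CPM in WT and 98.7 and 99.9 CPM in KO of run 3. Tars was separate within each run and changed by −0.41 ± 0.08 (SE, log2; adjusted p = 0.0016). Yars, the tyrosyl enzyme, ranged from 93.4 to 181 CPM in WT and from 72.1 to 120 CPM in KO (−0.36 ± 0.11, SE, log2; adjusted p = 0.030). In run 1 its gap was about 1 CPM, between WT replicate 3 at 121.6 and KO replicate 1 at 120.4 CPM. The Yars call was lost when any one of WT replicates 1, 2 and 4 and KO replicates 1, 2 and 3 was left out, on FPKM values and with the acinar marker term. Aars, the alanyl enzyme at chr8:111033144-111057664 (plus strand), ranged from 295 to 539 CPM in WT and from 232 to 454 CPM in KO. Its change was −0.30 ± 0.08 (SE, log2; adjusted p = 0.012), and the call was lost without KO replicate 3 and with the acinar marker term. Aars shares 1326 exon bases on the same strand with Exosc6, which was not called, so reads there cannot be assigned to either gene from these counts.

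The other cytosolic enzymes were not called. Gars, the glycyl enzyme, ranged from 273 to 440 CPM in WT and from 270 to 354 CPM in KO (−0.20 ± 0.08, SE, log2; adjusted p = 0.078). DESeq2, both limma-voom fits and the test without WT replicate 5 called Gars lower. Sars, the seryl enzyme that also primes selenocysteine synthesis, ranged from 262 to 431 CPM in WT and from 243 to 357 CPM in KO (−0.20, log2; adjusted p = 0.12), and it was called lower without WT replicate 3. Hars, the histidyl enzyme, ranged from 28.2 to 44.9 CPM in WT and from 24.8 to 40.1 CPM in KO (−0.14, log2; adjusted p = 0.44). Cars, the cysteinyl enzyme, read 88.2, 97.8 and 77.8 CPM in WT and 85.9 and 69.9 CPM in KO of run 1, then 72.7 and 67.8 CPM in WT and 73.9 and 76.4 CPM in KO of run 3. WT and KO overlapped in run 1, the KO libraries were the higher ones in run 3, and the fitted change was −0.05 ± 0.10 (SE, log2; adjusted p = 0.80).

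**Figure D2:**
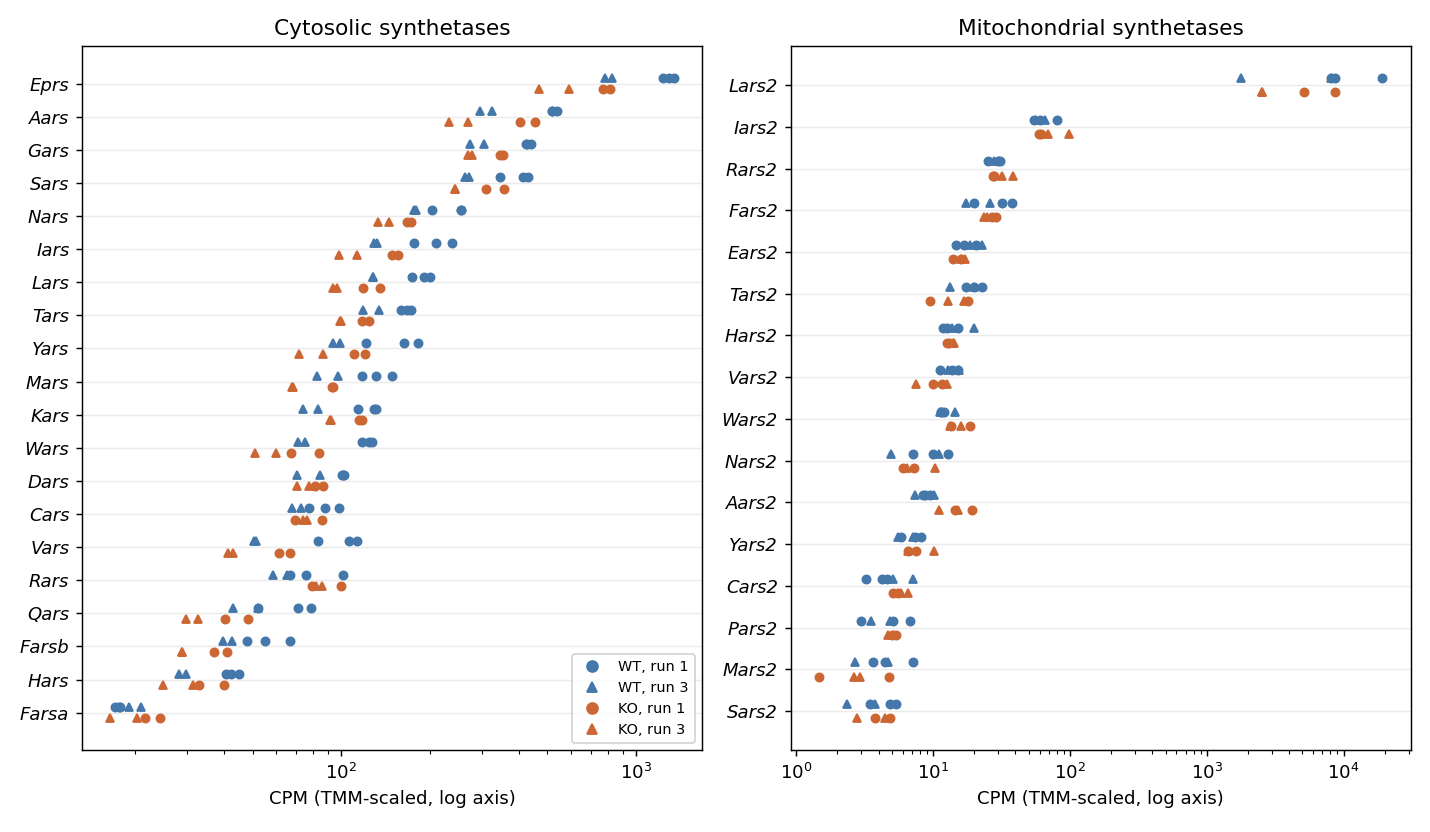
CPM of each synthetase in the 9 libraries on a log axis, with WT and KO by colour and the runs by symbol. WT points of run 1 lie highest for most cytosolic genes, for example Eprs at 1231 to 1341 CPM, and Lars2 stands far from the other mitochondrial genes.

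Synthetases fall into structural classes with unrelated catalytic domains, class I and class II. Of the 9 cytosolic enzymes with only a class I core, 7 fell, at a median log2 fold change of −0.45. Of the 10 with only a class II core, 4 fell, at a median of −0.20, and Eprs holds a core of each class. Of the 12 cytosolic enzymes commonly described as ATF4 targets, 9 fell, and the log2 fold changes of all 12 were negative, with a median of −0.40. In run 3 alone 11 of these 12 were negative. Among the 8 others, 3 fell (Qars, Vars and Farsb) and the median was −0.15. The median standard error was 0.113 for these 8 and 0.084 for the 12, so changes in the 8 were harder to detect. For comparison, 60% of the whole cytosolic class and 8.96% of all genes tested were called lower. These subgroup shares are descriptions, and no difference between subgroups was tested.

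Because ATF4 binds promoters together with C/EBP partners, the 250 bases before each start site were searched for TGATGNAA on both strands, read as TTNCATCA on the other, where N is any base. This is the core of the C/EBP-ATF response element. Windows of 25 of the 36 genes were searched, matched by symbol in the RefSeq promoter table (GRCm38.p6), 11 cytosolic and 14 mitochondrial. The letters occurred in 2 of the 25 (8.0%), both cytosolic, against 3.90% of the 27024 genes with a window. The genes were Gars and Tars, of which Tars fell and Gars was not called. The stretches are shown because they carry the match, which is in capitals, and bases annotated as exons were left out. They are chr6:55037751-55038000 (plus strand) for Gars and chr15:11399666-11399908 (minus strand) for Tars. The Gars stretch falls outside the rule for printing, which took called genes, and was chosen after its values were seen.
Gars: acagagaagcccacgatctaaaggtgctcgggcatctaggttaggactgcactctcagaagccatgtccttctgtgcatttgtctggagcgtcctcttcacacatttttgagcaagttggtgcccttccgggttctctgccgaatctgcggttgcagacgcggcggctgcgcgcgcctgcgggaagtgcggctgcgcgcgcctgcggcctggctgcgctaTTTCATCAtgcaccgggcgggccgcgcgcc
Tars: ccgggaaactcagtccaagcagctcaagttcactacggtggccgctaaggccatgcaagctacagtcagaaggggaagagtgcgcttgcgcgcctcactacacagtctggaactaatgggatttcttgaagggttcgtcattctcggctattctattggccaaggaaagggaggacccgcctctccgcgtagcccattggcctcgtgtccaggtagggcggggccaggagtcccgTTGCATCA
The match begins 30 bases before the start site in Gars and 15 in Tars. Most cytosolic genes that fell and were searched did not carry these letters, and a match is a description of the letters only.

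Among the mitochondrial enzymes, Aars2 rose. Aars2, the mitochondrial alanyl enzyme at chr17:45506841-45520843 (plus strand), read 9.53, 8.74 and 8.45 CPM in WT and 19.4 and 14.4 CPM in KO of run 1. It read 7.38 and 10.1 CPM in WT and 11.1 and 15.1 CPM in KO of run 3. Every KO library lay above every WT library, a pattern that 746 of all 12501 genes tested showed. The Aars2 change was 0.76 ± 0.19 (SE, log2; adjusted p = 0.013), or 69.4% higher. The call was lost without KO replicate 1, the highest library (log2 fold change 0.63), with the Ogt f/f controls alone, and within either run alone.

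Lars2, the mitochondrial leucyl enzyme at chr9:123366927-123462666 (plus strand), stood apart in level. Its FPKM, a level per transcript length, was 1971 ± 1282 (SD, n = 5) in WT, against 17.4 ± 2.75 for Iars2, the next mitochondrial gene. It read 8663, 19166 and 8122 CPM in WT and 5175 and 8673 CPM in KO of run 1, then 1775 and 8129 CPM in WT and 2523 and 2553 CPM in KO of run 3. WT and KO overlapped in both runs, and the change of −0.87 ± 0.33 (SE, log2; adjusted p = 0.082) did not pass the threshold. The share of counts assigned to Rn45s, the ribosomal RNA precursor, was 18.1%, 28.5% and 18.6% in WT and 17.7% and 19.4% in KO of run 1, then 9.62% and 24.3% in WT and 12.0% and 11.9% in KO of run 3. WT replicate 2 in run 1 and WT replicate 5 in run 3 were the highest libraries of their run for both Rn45s and Lars2. Without those libraries the Lars2 change was 0.01 (log2). Lars2 was called lower with no filter on low counts, with the Ogt f/f controls alone, and without WT replicate 3 or 4. The part of ribosomal RNA reads in the Lars2 count was not tested.

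**Figure D3:**
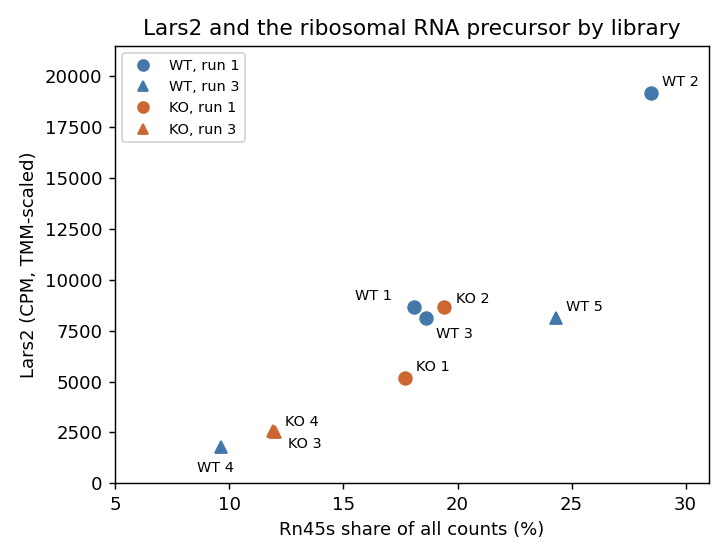
Lars2 level (CPM) against the share of all counts assigned to the ribosomal RNA precursor Rn45s (%), with 1 point per library. WT replicate 2 is highest on both axes (19166 CPM, 28.5%), and WT replicate 4 is lowest on both (1775 CPM, 9.62%).

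The other mitochondrial genes were not called, and their log2 fold changes ran from −0.55 for Mars2 to 0.33 for Wars2. Vars2, the mitochondrial valyl enzyme, read 15.1, 11.3 and 13.7 CPM in WT and 11.6 and 9.98 CPM in KO of run 1, then 12.8 and 15.5 CPM in WT and 12.6 and 7.48 CPM in KO of run 3 (−0.41, adjusted p = 0.16). Its WT and KO values overlapped in run 1. Wars2, the mitochondrial tryptophanyl enzyme, read 11.5, 12.0 and 11.4 CPM in WT and 18.6 and 13.6 CPM in KO of run 1, then 11.3 and 14.4 CPM in WT and 15.9 and 13.2 CPM in KO of run 3 (0.33, adjusted p = 0.20). KO replicates were above WT in run 1 and overlapped WT in run 3. Ears2, the mitochondrial glutamyl enzyme, read 20.5, 16.8 and 14.7 CPM in WT and 16.1 and 13.9 CPM in KO of run 1, then 18.7 and 22.6 CPM in WT and 16.1 and 17.2 CPM in KO of run 3 (−0.26, adjusted p = 0.25). Its groups overlapped in run 1.

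Fars2 and Sars2 had the highest p-values of the class. Fars2, the mitochondrial phenylalanyl enzyme, which works as a single chain, read 32.0, 37.9 and 19.9 CPM in WT and 28.7 and 26.8 CPM in KO of run 1, then 26.1 and 17.4 CPM in WT and 23.6 and 24.8 CPM in KO of run 3 (0.02, adjusted p = 0.95). Sars2, the mitochondrial seryl enzyme, read 5.37, 4.86 and 3.48 CPM in WT and 3.78 and 4.87 CPM in KO of run 1, then 3.76 and 2.37 CPM in WT and 4.49 and 2.79 CPM in KO of run 3 (0.07, adjusted p = 0.90). For both genes the groups overlapped in both runs. Among the rest, the log2 fold changes were −0.35 for Tars2, −0.25 for Nars2, −0.14 for Hars2, 0.10 for Rars2, 0.16 for Pars2, 0.16 for Iars2, 0.19 for Yars2 and 0.21 for Cars2. These genes charge mitochondrial transfer RNAs with the amino acid their first letters name, and Pars2 has no separate cytosolic counterpart, since Eprs charges proline in the cytosol. Mars2, the gene with the largest standard error (0.37), ranged from 2.70 to 7.12 CPM in WT and from 1.46 to 4.79 CPM in KO. Iars2 ranged from 54.96 to 80.6 CPM in WT and from 59.6 to 98.5 CPM in KO, with its log2 fold change at −0.12 in run 1 and 0.44 in run 3. Exons of 8 of the 36 synthetases overlap another protein-coding gene, the longest being 2034 bases between Iars2 and Rab3gap2 on opposite strands, so their counts are less certain. Counts behind mitochondrial values other than Lars2 ran from 6 to 671 reads per library, and those behind cytosolic values from 55 to 5498.

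Levels per transcript length were higher for the cytosolic class. The median FPKM in WT was 38.2 over the cytosolic genes and 2.69 over the mitochondrial ones. Eprs led the cytosolic class at 210 ± 45.7 FPKM, followed by Gars at 148 ± 33.0 and Aars at 107 ± 28.1 (SD, n = 5), and each differed from the next by less than the sum of the SDs. Farsa was the lowest cytosolic gene at 9.32 ± 0.32 FPKM. Besides Lars2, 3 mitochondrial genes reached the level of the lower cytosolic ones (Iars2 at 17.4, Fars2 at 15.3 and Rars2 at 13.6 FPKM), and Mars2 was lowest at 1.58 FPKM.

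Summed over the 20 cytosolic genes, WT libraries held 4638, 4741 and 4213 CPM and KO libraries 3399 and 3267 CPM in run 1. In run 3 the sums were 3027 and 2910 CPM in WT and 2305 and 2516 CPM in KO. KO lay below WT within each run, and the KO sums of run 1 lay above the WT sums of run 3, so the groups overlapped across runs. Without the run term, none of the 12 cytosolic calls remained. The sum over the mitochondrial genes other than Lars2 was 241, 250 and 242 CPM in WT and 246 and 220 CPM in KO of run 1, then 233 and 233 CPM in WT and 252 and 269 CPM in KO of run 3. These mitochondrial sums overlapped between WT and KO in run 1, and KO was higher in run 3. The cytosolic mean of log2 CPM minus the mitochondrial mean, with Lars2 left out, was 3.59, 3.54 and 3.52 in WT and 3.21 and 3.30 in KO of run 1. In run 3 it was 3.09 and 3.11 in WT and 2.70 and 2.90 in KO. The KO libraries had the lower difference in both runs.

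**Figure D4:**
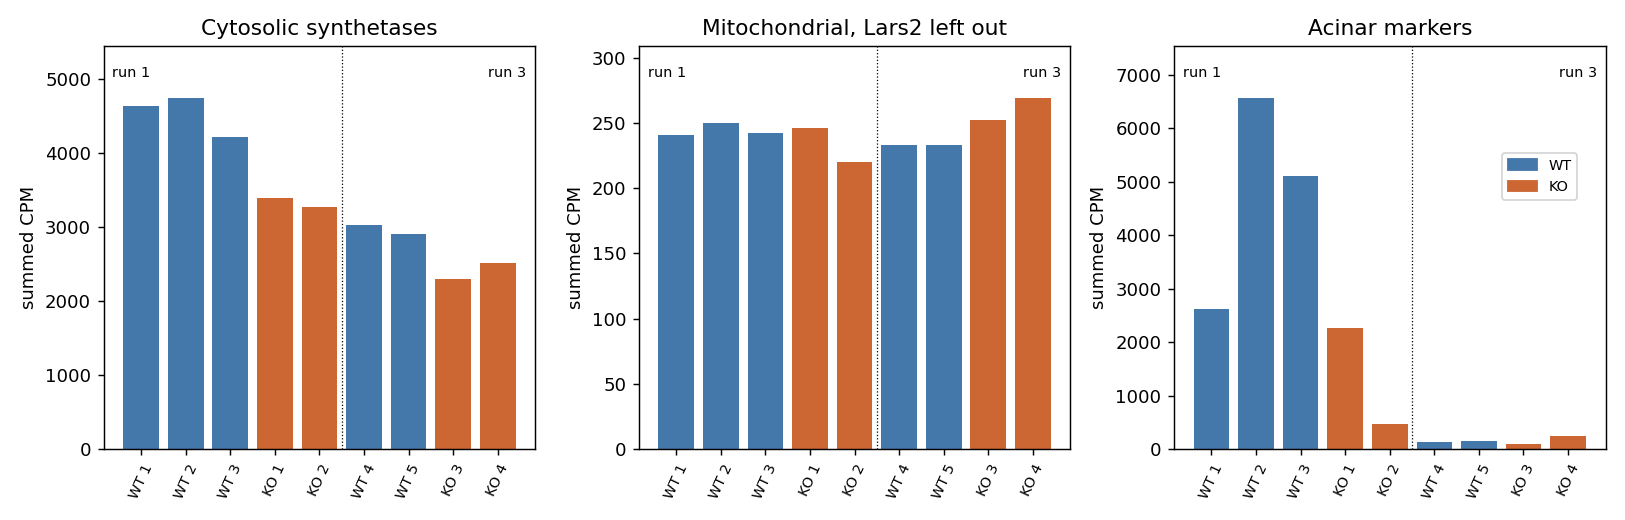
Summed CPM per library of the cytosolic synthetases, of the mitochondrial ones without Lars2, and of acinar markers, with bars from 0 and the runs set apart. Cytosolic sums are lower in KO within each run (run 1: 3267 to 3399 against 4213 to 4741 CPM), and acinar sums are high only in run 1 libraries.

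For 13 amino acids, the cytosolic and the mitochondrial enzyme come from separate genes that could be paired. The log2 ratio of cytosolic to mitochondrial CPM was lower in KO, averaged over the runs, in 10 pairs and higher in 3, with a median difference of −0.22. The histidyl, threonyl and valyl pairs, counted among the 10, differed by only −0.013, −0.033 and −0.036. In the alanyl pair (Aars to Aars2) the ratio was 5.77, 5.89 and 5.99 in WT and 4.55 and 4.82 in KO of run 1, then 5.45 and 4.87 in WT and 4.38 and 4.15 in KO of run 3. The difference was −1.05, and KO and WT did not overlap within either run. In the tryptophanyl pair (Wars to Wars2) the ratio was 3.47, 3.37 and 3.37 in WT and 2.17 and 2.31 in KO of run 1, then 2.66 and 2.39 in WT and 1.67 and 2.18 in KO of run 3. Its difference was −0.88, also with no overlap within a run. These were the 2 of 13 pairs whose groups were separate within both runs. The share of other gene pairs that would separate in this way was not determined. Among the 12501 single genes tested, KO lay below WT within both runs in 1371 and above it in 1492. The isoleucyl and tyrosyl pairs differed by −0.55 and −0.54 with overlapping groups, and the arginyl pair had the highest value at 0.20.

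**Figure D5:**
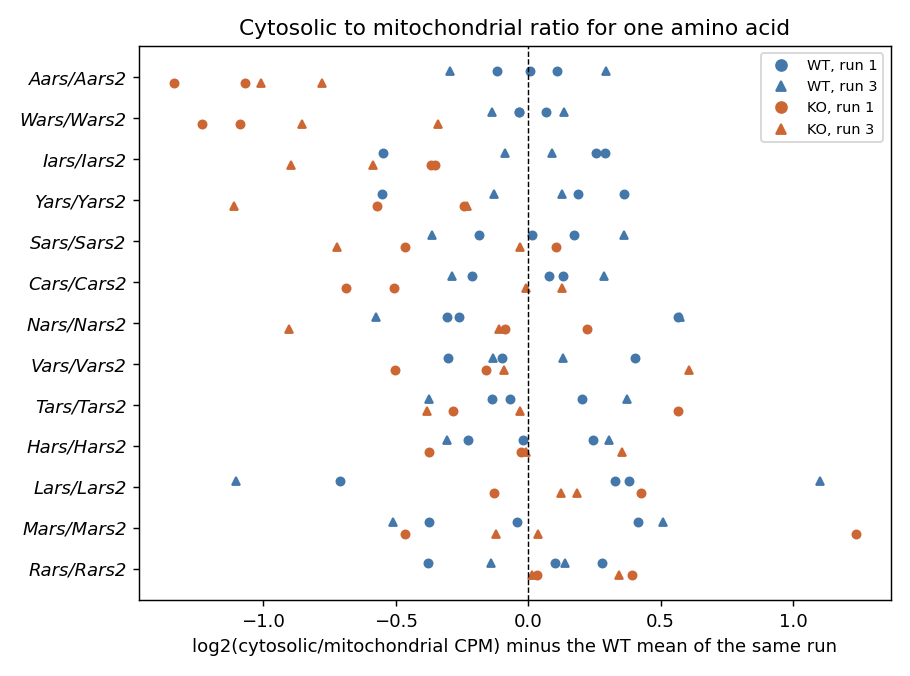
Log2 ratio of cytosolic to mitochondrial CPM for each of 13 amino acids, minus the WT mean of the same run, with 1 point per library. KO points lie left of all WT points of their run for Aars/Aars2 and Wars/Wars2, and Lars/Lars2 is spread by the Lars2 values.

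The difference between KO and WT did not itself differ detectably between runs. A test of the genotype by run interaction called 0 of the 36 synthetases and 0% of all genes tested (0 of 12501 by edgeR, with 744 at an unadjusted p under 0.05, 1 by DESeq2 and 0 by limma-voom). Among the synthetases 1 had an unadjusted p under 0.05 (Iars2, 0.048). Standard errors of the interaction ran from 0.142 for Gars to 0.766 for Mars2, against 0.075 to 0.373 in the main test. Differences between runs of the size of the cytosolic changes could therefore have been missed. The median cytosolic log2 fold change was −0.45 in run 1, with 18 of 20 genes negative, and −0.30 in run 3, with 17 negative. Within run 1 alone 7 cytosolic genes were called lower, and within run 3 alone 4 were. The mitochondrial median was −0.10 in run 1 and 0.10 in run 3. Between the Ogt f/+ and f/f controls, edgeR again called 0% of genes (0 of 12501, with 398 at an unadjusted p under 0.05), and 0 synthetases. That fit used all libraries of both runs, KO among them, with run and allele group as terms. All f/+ libraries were of run 1, where the WT group held 1 f/f library, so that comparison has little power. Its cytosolic log2 differences (f/+ minus f/f) ran from −0.28 to 0.23. Over all 36 synthetases they ran from −0.999 for Lars2 to 0.47 for Yars2, and 1 synthetase had an unadjusted p under 0.05 in edgeR.

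Acinar cells are a common carry-over in islet preparations, and their markers moved with genotype in run 1. Summed over 15 marker genes, they were at 2611, 6561 and 5115 CPM in WT and 2264 and 466 CPM in KO of run 1, but at 128 and 145 CPM in WT and 84.9 and 243 CPM in KO of run 3. Of the 13 markers tested, 3 fell and 10 were not called, and the median log2 fold change was −1.81 in run 1 and 0.20 in run 3. Of the 15, 14 were above 0 in every library, and Amy2a5 was at 0 in 1. In run 3 the cytosolic sums were 2305 and 2516 CPM in KO and 2910 and 3027 CPM in WT. With the acinar level as a term in the model, 9 cytosolic genes were called lower and the cytosolic median was −0.32 (log2). The 3 calls lost were Aars at −0.25 (adjusted p = 0.084), Iars at −0.32 (adjusted p = 0.060) and Yars at −0.32 (adjusted p = 0.11). Without KO replicate 2 and WT replicate 2, 10 were called lower. Beta cell markers fell in 4 of 8 genes (median −0.23, log2), and delta and PP cell markers rose in 2 of 5 (median 0.54). Alpha cell markers rose in 1 of 6 (median 0.31) and macrophage markers in 1 of 5 (median 0.15). None of the 5 fibroblast and stellate markers tested was called, with a median of 0.57 and 3 at an unadjusted p under 0.05. None of the 4 duct markers tested (median −0.09, 1 at an unadjusted p under 0.05) or the 5 endothelial ones (median 0.16, 0 under 0.05) was called. The part of these cell types in the synthetase values was not tested.

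Genes that work beside the synthetases moved in both directions. Of the 8 cytosolic partners and proofreading genes, 3 fell and 2 rose. Xpot, the exporter of transfer RNAs from the nucleus, fell by 0.65 (log2; adjusted p = 1.3e-04). Tarsl2, a second cytosolic threonyl enzyme, fell by 0.80 (adjusted p = 7.4e-04), and Eef1a1, which delivers charged transfer RNAs to the ribosome, fell by 0.26 (adjusted p = 0.022). Dtd1, a deacylase that removes mischarged D-amino acids, rose by 1.05 (log2; adjusted p = 8.9e-06), from 23.5 to 27.9 CPM in WT to 46.3 to 54.9 CPM in KO. Eef1a2, the muscle and neuron form of the elongation factor, rose by 0.47 (log2; adjusted p = 0.022). Its log2 fold change was 0.71 in run 1 (adjusted p = 0.035) and 0.13 in run 3 (adjusted p = 0.65), with an interaction p of 0.023 before adjustment and 0.79 after it. None of the 3 scaffold genes of the multisynthetase complex was called, with values from −0.32 for Eef1e1 to −0.17 for Aimp1. Of the 6 mitochondrial charging partners, 0 were called by edgeR and 2 had an unadjusted p under 0.05, Tufm at 0.52 and Gatc at −0.36 (log2). Tufm was low in run 1, at 1.49 to 3.65 CPM, against 20.4 to 31.1 CPM in run 3. Of the 4 selenocysteine route genes, 0 were called and 1 had an unadjusted p under 0.05.

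Atf4 itself read 415, 397 and 362 CPM in WT and 245 and 218 CPM in KO of run 1, then 404 and 374 CPM in WT and 229 and 254 CPM in KO of run 3. Every KO library lay below every WT library, and the change was −0.73 ± 0.08 (SE, log2; adjusted p = 2.0e-05). Of 19 integrated stress response genes, 6 fell and 1 rose, including Atf5 at −0.96, Trib3 at −1.39 and Ddit3 at −1.49 (log2). Of the 20 tested genes on a list of 22 ATF4 targets in amino acid uptake and synthesis, 12 fell and 0 rose, at a median log2 fold change of −0.51. Slc7a1, the cationic amino acid transporter, fell by 0.90 (log2). Slc3a2, the heavy chain of amino acid exchangers, fell by 0.81. Aldh1l2, which handles folate one-carbon units in mitochondria, fell by 1.30. The ATF4 lists and the synthetases were set side by side without a test of a relation between them.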

How the data were processed

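Raw counts by gene symbol and FPKM values (scaled to transcript length and library size) were deposited by the authors as separate tables, each with 1 column per library. Per the submitters' processing notes, Bowtie2 2.2.4.0, Cuffdiff 2.2.1, FastQC, edgeR and the build mm10 were used, in roles not stated. The counting tool, its use of strand and its handling of multiply mapped reads are not given in the sources used here. From the counts, 27 symbols turned into dates (0.133% to 0.186% of a library) were left out. Each library was counted as 1 sample. Pairs of libraries of a group, within and across runs, differed by a chi-square of 3.73 to 64.2 per degree of freedom. Such values cannot show whether libraries came from separate animals.

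The main test was edgeR 4.0.16 (R 4.3.3): TMM, filterByExpr by genotype, quasi-likelihood fit with run and genotype, Benjamini-Hochberg over 12501 genes, called at adjusted p under 0.05. CPM were TMM-scaled. Log2 CPM used a prior count of 2, and the ratios of paired genes were taken from CPM with no prior count. Alternatives used DESeq2 1.42.0, limma 3.58.1 (voom, and log2 of FPKM plus 1 or 0.1 at a minimum FPKM of 1), other filters and scaling, an acinar term, single runs and left-out libraries. The scripts were tested on simulated counts. Gene positions are GENCODE M21 on GRCm38 and promoters are RefSeq; 1 promoter window is not reported here and was left out of the shares.

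Members and gene lists were chosen with earlier results of these data known. Libraries are listed in full for the 10 cytosolic and 5 mitochondrial genes with the lowest p and the 2 of each class with the highest p, and for Rars, chosen after its values were seen. Proteins of paired enzymes were not compared here. Totals of 3796043 to 6073537 counts limit precision for genes at a few CPM.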

Additional observations from a re-analysis of the deposited data

Results flagged for a closer look

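In the WT group, Wars2 in replicate 5 lay at 14.36 CPM, apart from the other 4 WT libraries at 11.29 to 11.98 CPM. The gap to its nearest neighbour was 0.776 of the group's whole range. Of 72 such checks (36 genes in each of the WT and KO groups) this was the 1 that stood out. Chance alone flags about 1 in 20 checks, so 1 of 72 is no more than chance gives. Each group pooled libraries of both runs.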

How the results depend on the processing

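Of the 12 cytosolic calls, 10 held whichever single library was left out, with 10 to 13 cytosolic genes called lower. The count was 0 without the run term, 7 in run 1 alone and 4 in run 3 alone, which have fewer libraries. The count of mitochondrial genes called lower was 1 with no filter, 1 with Ogt f/f controls alone and 0 to 1 over single left-out libraries. The count called higher was 0 with Ogt f/f controls alone, 0 in run 1, 0 in run 3 and 0 to 1 over left-out libraries. Over all genes, 2315 calls became 672 without the run term, 1300 on FPKM with no filter, 1542 with f/f controls alone, 1429 with the acinar term, 1496 without WT replicates 2 and 5, 1512 without KO and WT replicate 2, 756 in run 1 and 1021 in run 3, and 1602 to 2333 over single left-out libraries.

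Some genes that were not called changed sign (log2 fold change). In run 1 alone Kars was −0.12, Fars2 −0.11, Iars2 −0.12, Rars2 −0.084, Sars2 −0.09 and Yars2 −0.04. In run 3 alone Cars was 0.091, Farsa −0.13 and Nars2 0.052. Without WT replicates 2 and 5 Fars2 was −0.006, Hars2 0.043, Lars2 0.012 and Sars2 −0.059. Without the run term Kars was −0.029 and Fars2 −0.029. With f/f controls alone Fars2 was −0.081 and Pars2 −0.001. With the acinar term Cars was 0.06 and Sars2 −0.07. Over left-out libraries, taken singly or as KO and WT replicate 2 together, Cars ran from −0.11 to 0.079, Kars from −0.016 to 0.119, Fars2 from −0.11 to 0.149 and Sars2 from −0.10 to 0.17. The causes were not tested. No paired analysis was possible because the labels number no replicates, and the numbers used here only name libraries in listed order. Low counts limit the precision of mitochondrial genes other than Lars2, whose values differed widely between libraries.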
